A study of Thermothelomyces thermophilus ATCC 42464 with 8 samples.

Results

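Transcript levels of 4 regulator genes, clr-1 (MYCTH_2298863), clr-4 (MYCTH_2296492), xyr-1 (MYCTH_2310145) and clr-2 (MYCTH_38704), were followed in 8 RNA-seq libraries of Myceliophthora thermophila, a thermophilic fungus that degrades plant biomass. The genes were taken by locus tag out of 9110 genes in the count table, and all 4 passed the filter on low counts. The study had already singled out these 4 genes from the same libraries, so their direction against JG207 is a description and not independent evidence. The sources used here do not settle which of the names clr-1 and clr-4 belongs to which locus tag, so these names may be exchanged. Every value below belongs to the locus tag given here.

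Filamentous fungi keep most genes of plant cell wall degradation at a low level until sugars released from the wall signal their use, and the switch is made largely by transcription factors that bind DNA through clusters of zinc and cysteine. In Neurospora crassa, CLR-1 is required for the response to cellulose and acts in part through CLR-2, whose gene it activates, and CLR-2 then raises the genes of cellulases. XYR-1 (XLR-1 in N. crassa) is the activator of xylanase genes and of d-xylose use, and its counterpart in Trichoderma reesei also drives cellulase genes. CLR-4 is known as a positive regulator of cellulase genes in M. thermophila.

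Strains compared were DF1102, DF1406, DF1501 and JG207, with 2 libraries each. DF1102 was JG207 with Mtxyl1 deleted, which encodes d-xylose reductase, the enzyme that turns d-xylose into xylitol at the start of the oxo-reductive route. DF1406 was JG207 with Mtxyl1 deleted and Mtxyd1, xylD, xylX and xylA overexpressed, and DF1501 was JG207 with Mtxyl1 deleted and Mtxyd1, xylD, BxxylX and KsaD overexpressed. These genes encode the Weimberg pathway, a route that oxidizes d-xylose without phosphorylation, and Mtxyd1 and xylD were under strong constitutive promoters. The study reports that they were inserted at random places in the genome and in multiple copies. JG207, the starting strain, already overexpressed the transporter gene Aomae and the pyruvate carboxylase gene Aopyc, which all 4 strains therefore shared. Mycelium was grown for 24 h with 2% glucose at 45 °C and 150 rpm and then kept for 4 h with 1% d-xylose before RNA was taken, so no library shows the genes before d-xylose. Because RNA came from whole mycelium, fewer cells of a type and less RNA per cell cannot be told apart. It is not stated whether the 2 libraries of a strain were separate cultures, so each p-value reflects the spread of these libraries alone, and that spread may be technical.

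Library totals ranged from 20727346 to 21408353 counts. Mtxyl1 (MYCTH_43671) stood at 382.9 to 411.9 RPKM in DF1102, 101.8 to 108.8 RPKM in DF1406 and 227.7 to 252.1 RPKM in DF1501, against 1676 to 1773 RPKM in JG207, lower as the labels imply, although reads remained in every deletion strain. RPKM is a read count scaled by gene length and library total, so it can be compared between genes. The libraries of DF1501 lay furthest apart. Their root mean square deviation from the strain mean was 0.202 on the log2 CPM scale (counts scaled by library size), against 0.137 to 0.155 in the other strains. All tests came from a single edgeR quasi-likelihood fit of the 8 libraries with Benjamini-Hochberg adjustment over 8335 genes. A gene passed the test when its adjusted p did not exceed 0.05, and was called higher or lower when its fold was also at least 2 against JG207 or at least 1.5 between the other strains.

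All 4 regulator genes were higher in each strain without Mtxyl1 than in JG207. In DF1102, which has no Weimberg construct, clr-1 rose 4.55-fold, xyr-1 3.47-fold, clr-2 2.12-fold and clr-4 1.98-fold. Against DF1102, clr-1 was called lower in DF1501 (1.66-fold). In DF1406 it was 1.41-fold lower and passed the test, but under the fold minimum and less stably. The gene clr-4 passed as lower in DF1501 only, also under that minimum, whereas xyr-1 and clr-2 did not pass the test in either. DF1501 and DF1406 were not told apart by any of the 4 genes.

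The gene clr-1 stood at 84.36 and 87.09 RPKM in DF1102, 66.1 and 50.56 RPKM in DF1406, and 49.3 and 54.56 RPKM in DF1501, against 16.3 and 21.39 RPKM in JG207. No library of the 3 deletion strains reached down to the JG207 level, and both DF1102 libraries lay above all others. Within its library, clr-1 stood above 84.9% and 85.6% of all genes in DF1102 and above 47.6% and 52.2% in JG207. In JG207 it thus ranked near the middle of all genes, and in DF1102 near the top of them.

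The gene clr-4 was at 82.53 and 81.85 RPKM in DF1102, 67.84 and 58.49 RPKM in DF1406, and 59.17 and 68.17 RPKM in DF1501, against 38.37 and 44.47 RPKM in JG207. The libraries of DF1102 were again highest and those of JG207 lowest, and the libraries of DF1406 and DF1501 overlapped. This gene already stood above 69.8% and 72.0% of genes in JG207, the highest place of the 4 in that strain.

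The gene xyr-1 had 25.92 and 24.18 RPKM in DF1102, 19.83 and 20.56 RPKM in DF1406, and 22.22 and 21.66 RPKM in DF1501, against 6.143 and 8.305 RPKM in JG207. Its 6 libraries without Mtxyl1 formed a narrow band well above JG207. In DF1102 it stood above 58.0% and 57.2% of genes, against 29.3% and 32.0% in JG207.

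The gene clr-2 was the lowest of the 4 in every library, with 3.63 and 3.667 RPKM in DF1102, 4.475 and 3.233 RPKM in DF1406, and 4.123 and 5.092 RPKM in DF1501, against 1.7 and 1.734 RPKM in JG207. It alone had its highest strain mean in DF1501 and not in DF1102. These levels rest on 163 to 253 reads in the deletion strains and on 85 and 89 reads in JG207. The exact Poisson 95% interval of the lowest count, 85, runs from 67.9 to 105 reads and covers counting error only. Every other regulator gene had at least 397 reads in each library, so clr-2 is the least precisely measured.

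**Figure D1:**
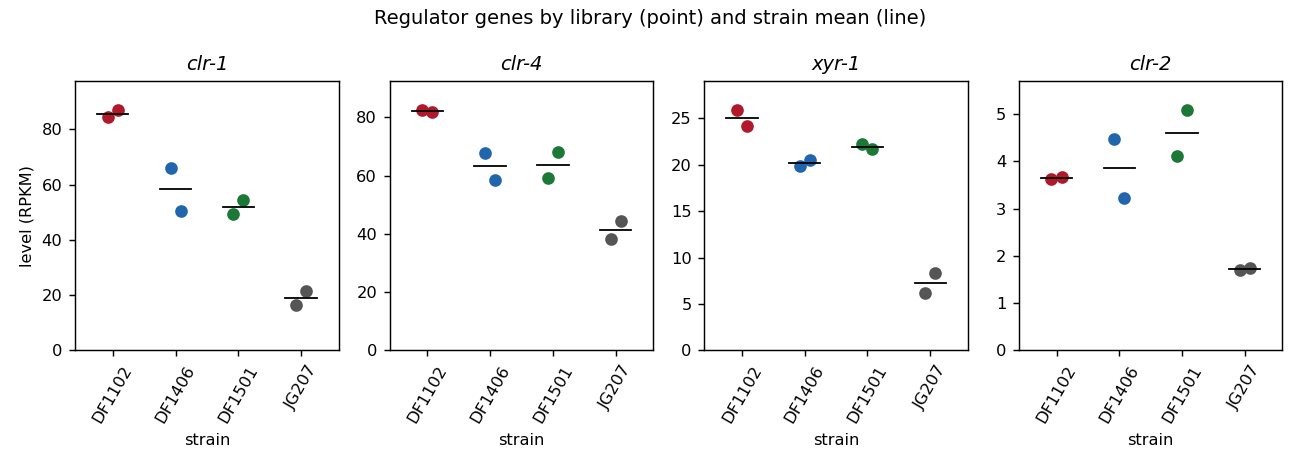
Level of each regulator gene (RPKM, vertical axis from 0, own scale in each panel) in the libraries of DF1102, DF1406, DF1501 and JG207. Points are the 2 libraries of a strain and lines their mean, and all JG207 points lie below all points of the other strains, for example 16.3 and 21.39 RPKM for clr-1 against at least 49.3 RPKM elsewhere.

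The first comparison asks how the regulator genes stood when Mtxyl1, the gene for the start of the oxo-reductive route, was deleted. In DF1102 against JG207, 4 of 4 passed the test as higher, where 27.8% of all tested genes did, and 3 of 4 were called higher, where 10.2% of all genes were. For clr-1 the log2 fold change was 2.19 (standard error, SE, 0.15, edgeR adjusted p = 1e-05), which exceeded that of 97.5% of tested genes. That of xyr-1 was 1.79 (SE 0.13, adjusted p = 1.4e-05), above 96.0% of genes. The change was 1.08 for clr-2 (SE 0.19, adjusted p = 0.00113). For clr-4 it was 0.99 (SE 0.11, adjusted p = 0.00011), which is just under the fold minimum of 2. The libraries of the strains did not overlap for any of the 4 genes, as was so for 80.8% of all genes. The median log2 fold change was 1.44 over the 4 genes and -0.012 over all tested genes. With limma on log2(RPKM + 1) the number called was 2 instead of 3, and on log2(RPKM + 0.1) it was 3. It was 4 with at least 10 counts required in every library and with only the 4 libraries compared. Whether clr-2 and clr-4 are called thus depends on the setting. All 4 genes passed the test in each of these settings.

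The 4 genes did not rise by the same factor. The 95% interval of the log2 fold change in DF1102 ran from 1.86 to 2.52 for clr-1, which did not overlap the interval of clr-4, from 0.73 to 1.24, or that of clr-2, from 0.65 to 1.51. The interval of xyr-1, from 1.51 to 2.08, overlapped that of clr-1. The intervals of clr-4 and clr-2 overlapped, so which of them changed least is not settled.

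In DF1406 against JG207, 4 of 4 passed the test as higher (17.2% of all genes) and 3 of 4 were called higher (7.13% of all genes). The log2 fold changes were 1.69 for clr-1 (edgeR adjusted p = 6.6e-05), 1.55 for xyr-1 (5.2e-05), 1.22 for clr-2 (0.00143) and 0.67 for clr-4 (0.0021). The gene not called was again clr-4, at a fold of 1.59. Libraries did not overlap for all 4 genes (72.2% of all genes), and limma on log2(RPKM + 1) called 2.

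In DF1501 against JG207, 4 of 4 passed the test as higher (11.7% of all genes) and 3 of 4 were called higher (4.69% of all genes). Here xyr-1 had the highest log2 fold change, 1.60 (edgeR adjusted p = 0.00011), followed by clr-1 at 1.46 (0.00032), clr-2 at 1.41 (0.0014) and clr-4 at 0.61 (0.00665). Libraries did not overlap for all 4 genes (62.2% of all genes). Without DF1501 replicate 2, which stood apart in other genes, the values were 1.67 for xyr-1, 1.43 for clr-1, 1.30 for clr-2 and 0.56 for clr-4, and all 4 still passed. The 3 comparisons share the JG207 libraries, so a chance deviation there would appear in all of them.

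**Figure D2:**
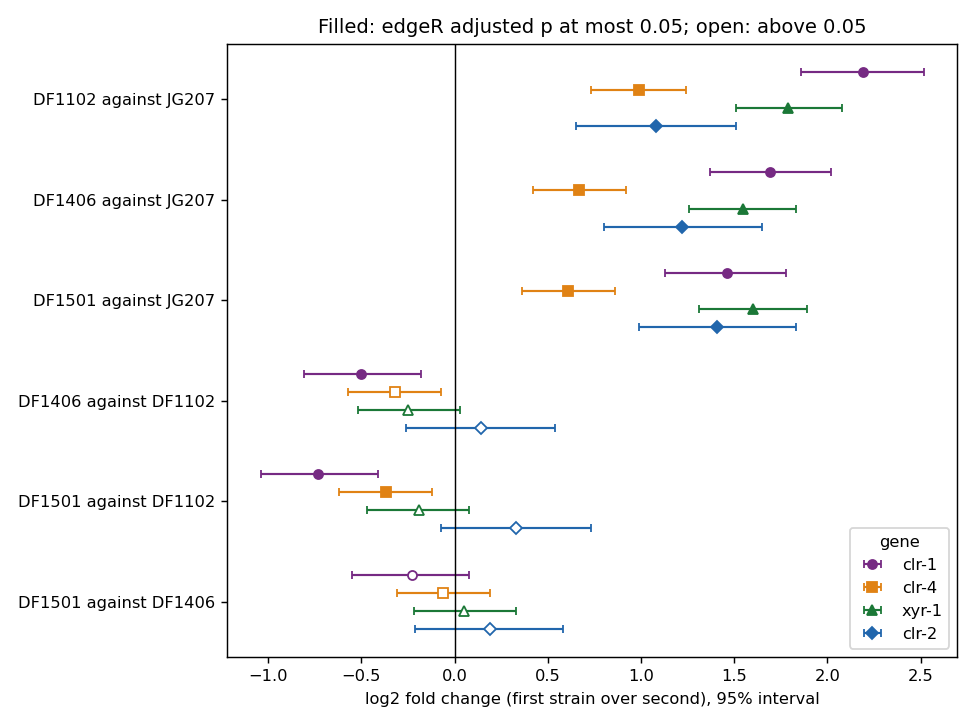
Log2 fold change of each regulator gene (horizontal axis, first strain over second, with its 95% interval) in the 6 comparisons of strains. Filled symbols passed the edgeR test at an adjusted p of at most 0.05, as all 12 symbols against JG207 did, while of the 12 symbols between the other strains only clr-1 in DF1406 and clr-1 and clr-4 in DF1501, each against DF1102, are filled.

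The second comparison sets the strains that also carry the Weimberg pathway against DF1102, which has the Mtxyl1 deletion alone. The pathway genes were inserted at random places. Mtxyl1 reads were also lower than in DF1102, at log2 fold changes of -1.85 in DF1406 and -0.73 in DF1501. The effect of the pathway alone was thus not tested. In DF1406 against DF1102, 1 of 4 passed the test as lower (9.90% of all genes) and 0 of 4 were called lower (4.32% of all genes). At an unadjusted p under 0.05 there were 2 lower, and DESeq2 and limma each found 1 passing and 0 called. The gene that passed was clr-1, with a log2 fold change of -0.50 (SE 0.14, edgeR adjusted p = 0.035), a level 1.41-fold lower than in DF1102. The value was -0.54 (adjusted p = 0.126) without DF1102 replicate 1 and -0.45 (adjusted p = 0.151) without DF1102 replicate 2, about as large but no longer past the test. Without DF1406 replicate 2 it was -0.33 (adjusted p = 0.223).

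For clr-4 the value in DF1406 against DF1102 was -0.32 (95% interval -0.57 to -0.07, edgeR adjusted p = 0.0693). For xyr-1 it was -0.25 (-0.52 to 0.03, adjusted p = 0.173), and for clr-2 0.14 (-0.26 to 0.54, adjusted p = 0.61). The libraries did not overlap for clr-1, clr-4 and xyr-1, as was so for 68.2% of all genes, and overlapped for clr-2. A fall of xyr-1 by up to 0.52 on the log2 scale lies within its interval.

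In DF1501 against DF1102, 2 of 4 passed the test as lower (16.3% of all genes) and 1 of 4 was called lower (8.24% of all genes). The called gene was clr-1, with a log2 fold change of -0.73 (95% interval -1.04 to -0.41, edgeR adjusted p = 0.0051), a level 1.66-fold lower. Its value was -0.75 (adjusted p = 0.0158) without DF1501 replicate 2. The other gene that passed was clr-4, at -0.37 (-0.62 to -0.12, adjusted p = 0.0288), under the fold minimum. It stayed about as large but did not pass without DF1102 replicate 1 (-0.39, adjusted p = 0.101), without DF1102 replicate 2 (-0.36, adjusted p = 0.115) or without DF1501 replicate 1 (-0.32, adjusted p = 0.0914). Leaving out the other DF1501 library gave -0.43 (adjusted p = 0.0469).

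The gene xyr-1 was at -0.19 in DF1501 against DF1102 (-0.47 to 0.08, edgeR adjusted p = 0.245) and clr-2 at 0.33 (-0.07 to 0.73, adjusted p = 0.175). The interval of clr-2, the only one of the 4 with a positive value, did not overlap the interval of clr-1 in this comparison. Libraries did not overlap for any of the 4 genes, as was so for 69.9% of all genes.

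DF1501 and DF1406 differ in the last enzymes of the Weimberg pathway, but also come from separate random insertions. Mtxyd1 stood at 1947 and 1982 RPKM in DF1501 and at 4071 and 3639 RPKM in DF1406. Mtxyl1 reads differed too, at 252.1 and 227.7 RPKM against 101.8 and 108.8 RPKM. The effect of the last enzymes alone was thus not tested. In DF1501 against DF1406, 0 of 4 passed the edgeR test in either direction (2.53% of all genes were higher and 2.29% lower). No gene of the 4 had an unadjusted p under 0.05, and DESeq2 and limma gave 0 as well. The intervals of the log2 fold change ran from -0.55 to 0.08 for clr-1, -0.31 to 0.19 for clr-4, -0.22 to 0.33 for xyr-1 and -0.21 to 0.58 for clr-2. Differences within these intervals are not excluded.

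The order of the mean levels also differed between strains. In JG207 and in DF1501 it was clr-4, clr-1, xyr-1 and clr-2, with no overlap between neighbours. In DF1102 clr-1 stood slightly above clr-4, at 85.73 ± 1.93 and 82.19 ± 0.48 RPKM (mean ± SD, n = 2). The gap was small, with 84.36 and 82.53 RPKM in replicate 1, so a change of order is not settled by these libraries. In DF1406 the libraries of clr-4 and clr-1 overlapped, at 63.17 ± 6.62 and 58.33 ± 10.99 RPKM (mean ± SD, n = 2), so their order is not settled there.

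Ratios within a library do not depend on how libraries were scaled to each other. The ratio of clr-1 to clr-4 in RPKM was 1.022 and 1.064 in the DF1102 libraries, 0.974 and 0.864 in those of DF1406, and 0.833 and 0.800 in those of DF1501, against 0.425 and 0.481 in JG207. The strains did not overlap in this ratio, and it was lowest in JG207. The ratio of clr-1 to clr-2 was 23.2 and 23.8 in the DF1102 libraries, 14.8 and 15.6 in those of DF1406, and 11.96 and 10.71 in those of DF1501, against 9.58 and 12.3 in JG207. Here DF1501 overlapped JG207 and DF1102 stood apart, so the proportion of clr-1 to clr-2 in DF1501 lay within the range of JG207. The ratio of clr-1 to xyr-1 varied less, from 2.219 to 3.601 over the 8 libraries. An exact two-sided permutation test of 2 libraries against 2 cannot go below p = 0.333, which each tested difference of these ratios gave (DF1102 against JG207 and DF1501 against DF1102).

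**Figure D3:**
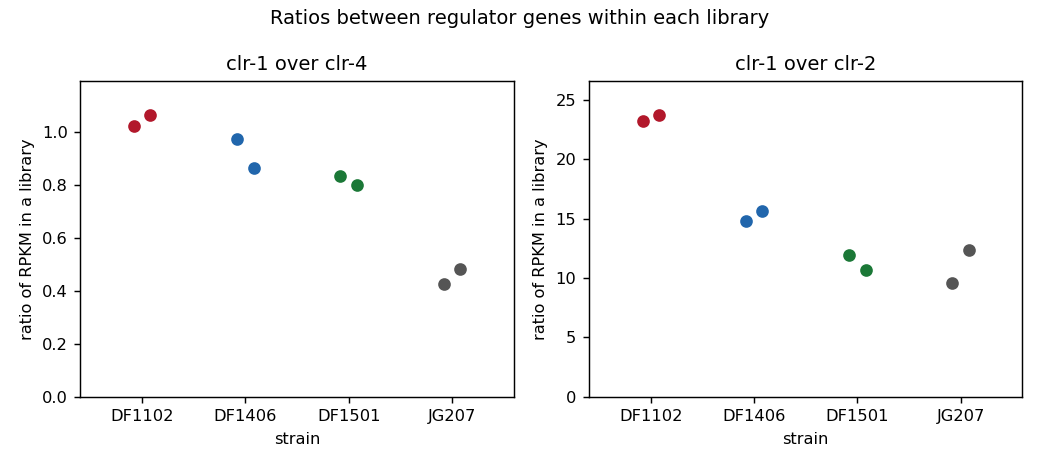
Ratio of RPKM between clr-1 and clr-4 (left) and between clr-1 and clr-2 (right) in each library (points), by strain, with both vertical axes from 0. The left ratio was above 1 only in the 2 libraries of DF1102, and the right ratio separated DF1102, at 23.2 and 23.8, from the other strains, at 9.58 to 15.6.

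Summed over the 4 genes, the level was 196.4 and 196.8 RPKM in DF1102, 158.2 and 132.8 RPKM in DF1406, and 134.8 and 149.5 RPKM in DF1501, against 62.51 and 75.9 RPKM in JG207. The genes clr-1 and clr-4 made up most of this sum in each library. The share of clr-1 was 42.9% and 44.3% in the DF1102 libraries, 41.8% and 38.1% in those of DF1406, and 36.6% and 36.5% in those of DF1501, against 26.1% and 28.2% in JG207. The share of clr-2 lay between 1.85% and 3.41% in all 8 libraries.

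The enzyme and transporter genes that such regulators are known to act on were taken from lists that the study chose on these same samples, so their direction is not independent evidence. Of 15 glycoside hydrolase genes of families acting on xylan, DF1102 had 15 called higher against JG207, DF1406 had 14 and DF1501 had 13, with median folds of 7.76, 8.13 and 5.11. Of all tested genes, 10.2%, 7.13% and 4.69% were called higher in these 3 comparisons. Of 11 genes of families acting on cellulose, 11, 11 and 9 were called higher in these strains, with median folds of 5.17, 4.32 and 2.51. Of 19 sugar transporter genes, 18, 16 and 15 were called higher. No gene of these lists was called lower against JG207. The counts of DF1501 depend on the library left out. They ranged from 8 (without JG207 replicate 2) to 14 for xylan and from 4 (without DF1501 replicate 1) to 10 for cellulose, with 5 for cellulose without JG207 replicate 2.

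The largest change of the xylan list was in MYCTH_100068, a GH11 xylanase gene, at 917.9 and 733.4 RPKM in DF1102, 991.1 and 646.9 RPKM in DF1406, and 594.8 and 54.01 RPKM in DF1501, against 0.344 and 0.335 RPKM in JG207. The largest of the cellulose list was in MYCTH_110651, which encodes a lytic polysaccharide monooxygenase of family AA9, at 8.848 and 8.509 RPKM in DF1102 against 0.108 and 0.140 RPKM in JG207. Among transporters it was MYCTH_84164, which matches a hexose transporter, at 91.19 and 101.9 RPKM in DF1102 against 2.558 and 2.3 RPKM in JG207. These changes, each picked as the largest of its list, were many times those of the regulator genes. JG207 levels of MYCTH_100068 and MYCTH_110651 were very low, so the size of their folds is uncertain. Median folds in DF1102 were 7.76 for the xylan list, 5.17 for the cellulose list and 4.76 for the transporters. The regulator genes changed 1.98-fold to 4.55-fold there. The study showed the genes of these lists as upregulated, so the size of their medians also depends on that choice. Mtxyd1 (MYCTH_112471), the d-xylose dehydrogenase gene that DF1406 and DF1501 also carry on a construct, had a log2 fold change of 2.33 in DF1102 (SE 0.20, edgeR adjusted p = 3.3e-05), close to that of clr-1. The actin gene MYCTH_2314852 was at -0.25 (SE 0.15, adjusted p = 0.176).

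Regulator and enzyme genes did not differ alike between the 2 libraries of DF1501. The summed level of the xylan list was 12500 RPKM in replicate 1 and 4297 RPKM in replicate 2, a ratio of 0.344, with 15 of 15 genes lower in replicate 2. For the cellulose list the ratio was 0.503, with 9 of 11 genes lower, and for the transporters 0.883, with 12 of 19 lower. The 4 regulator genes summed to a ratio of 1.11, and only xyr-1 was lower in replicate 2. Of all tested genes, 35.6% were lower in replicate 2. This is a difference between 2 libraries of 1 strain, and no test applies to it.

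**Figure D4:**
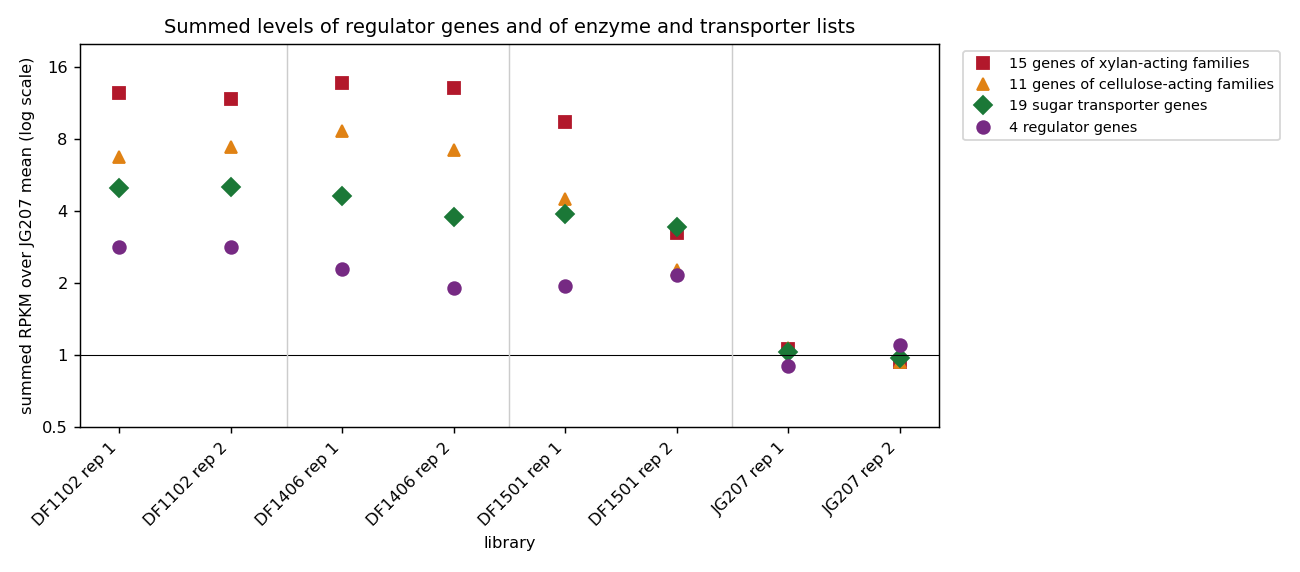
Summed RPKM of the 4 regulator genes and of 3 gene lists in each library, divided by the mean of the 2 JG207 libraries (vertical axis, log scale), with grey lines between strains. In DF1501 replicate 2 the xylan families stand at 3.23 and the cellulose families at 2.28, against 9.40 and 4.52 in replicate 1, while the regulator genes stand at 2.16 and 1.95.

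Other zinc cluster genes were found by their descriptions, which are those of the best Saccharomyces cerevisiae match. These words marked 33 genes, among them clr-4 and xyr-1 but not clr-1 or clr-2, and the other 31 were all tested. Genes of this family can thus be missed by the words, and the 31 need not be all of it. In DF1102 against JG207, 7 of the 31 were called higher and 1 lower (22.6% and 3.23%, beside 10.2% and 11.1% of all tested genes), with a median log2 fold change of 0.36. In DF1406, 4 were called higher and 0 lower by edgeR (7.13% and 4.01% of all genes), and in DF1501, 3 and 0 (4.69% and 1.30% of all genes). The summed level of the 31 genes was 1.07 and 1.07 times the JG207 mean in DF1102, 1.01 and 1.03 times in DF1406 and 1.07 and 1.13 times in DF1501. Such sums are weighted by abundant genes. Without MYCTH_2305551, the abundant member that was lower in DF1102 and was left out here after its values were seen, the other 30 summed to 1.41 and 1.39 times the JG207 mean in DF1102, 1.24 and 1.29 times in DF1406 and 1.29 and 1.25 times in DF1501. The 4 regulator genes summed to between 1.92 and 2.84 times the JG207 mean.

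The 4 highest of these genes in DF1102 were MYCTH_2305522 at a log2 fold change of 2.52 (SE 0.14), MYCTH_2301131 at 1.79 (0.20), MYCTH_2308423 at 1.45 (0.16) and MYCTH_46266 at 1.24 (0.17). MYCTH_2305522 stood at 59.81 and 58.29 RPKM in DF1102, 60.35 and 58.38 RPKM in DF1406, and 42.79 and 34.59 RPKM in DF1501, against 9.704 and 10.9 RPKM in JG207. Its change was thus of the size of that of clr-1, with no lower level in DF1406. MYCTH_2301131 stood at 65.25 and 64.51 RPKM in DF1102, 37.77 and 37.48 RPKM in DF1406, and 38.02 and 27.34 RPKM in DF1501, against 20.79 and 16.44 RPKM in JG207. MYCTH_2308423, which matches an activator of Ty1 elements, was much scarcer, at 3.917 to 4.112 RPKM in DF1102 and 1.314 to 1.623 RPKM in JG207.

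The only gene of the 31 called lower in DF1102 was MYCTH_2305551, which matches an activator of genes of non-fermentative growth. It stood at 89.31 and 100.6 RPKM in DF1102, 130.1 and 118.0 RPKM in DF1406, and 153.9 and 215.2 RPKM in DF1501, against 231.3 and 261.3 RPKM in JG207. Its log2 fold change in DF1102 was -1.38 (SE 0.15, edgeR adjusted p = 0.0001). In DF1501 it was -0.43 and did not pass the test (adjusted p = 0.073).

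**Figure D5:**
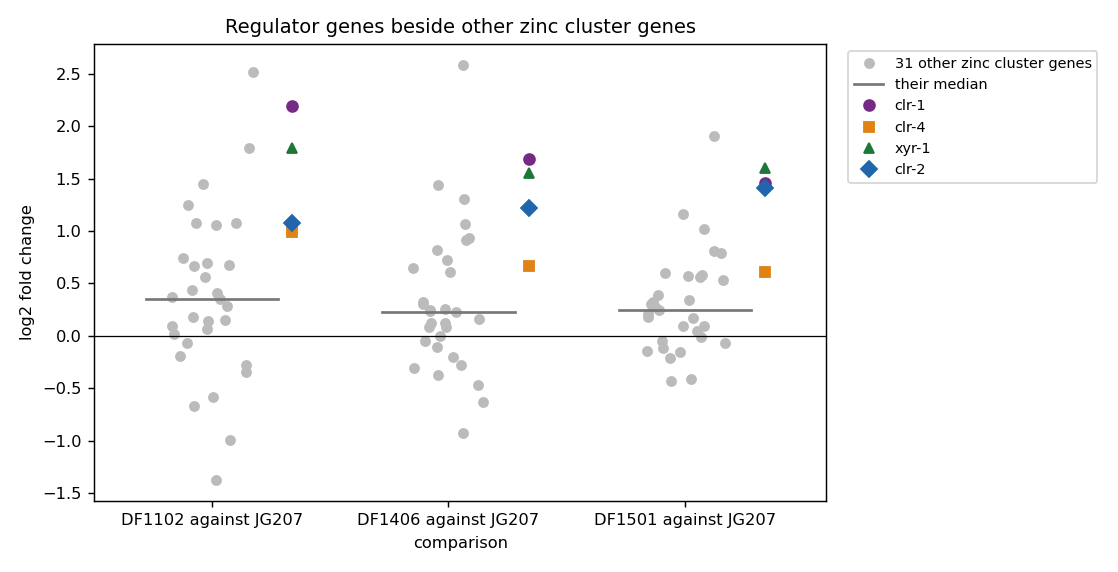
Log2 fold change against JG207 (vertical axis) of the 31 other zinc cluster genes (grey points, spread sideways only for legibility, median as a line) and of the 4 regulator genes (coloured symbols) in DF1102, DF1406 and DF1501. The medians are 0.36, 0.23 and 0.25, and each regulator gene lies above them, clr-4 least.

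The descriptions set the 4 genes apart from each other. The genes clr-4 and xyr-1 share their best S. cerevisiae match, a zinc cluster protein proposed to act in the stress response, with 14 other genes of M. thermophila. All 14 are among the 31 other zinc cluster genes above. Of these 14, 6 were called higher and 0 lower in DF1102 against JG207, with a median log2 fold change of 0.48 and a range from -0.58 to 2.52. These 6 calls are among the 7 given above and are not a further result. By edgeR, 10.2% and 11.1% of all tested genes were called higher and lower. The best match of clr-1 is a zinc finger factor that responds to heme and oxygen, and that of clr-2 is the activator of the galactose genes, and no other gene of the table carries either match. A best match in yeast is a likeness of sequence and does not give the function in M. thermophila.

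Genes with the most similar pattern were found for each regulator gene from the root mean square difference of mean-centred log2 CPM over the 8 libraries, as a description. Nearest to clr-1 was MYCTH_2121737, without a description, at a difference of 0.116. It stood at 28.63 and 32.66 RPKM in DF1102, 22.77 and 17.71 RPKM in DF1406, and 17.05 and 19.47 RPKM in DF1501, against 4.574 and 6.777 RPKM in JG207. Next were MYCTH_2303368, which matches the mitochondrial translation factor EF-Tu, at 0.134, and MYCTH_2139925 at 0.142. The closest other regulator gene to clr-1 by this rule was xyr-1, in place 36 among all genes, at 0.233 (Pearson r 0.962). The rule also counts differences in the size of change. The gene clr-4 was in place 435 at 0.466, although its Pearson r with clr-1 was higher, 0.993. Patterns of clr-1 and clr-4 thus ran alike over the libraries and differed mainly in size.

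For clr-4 the nearest genes were MYCTH_2314437, which matches a transcriptional coactivator, at 0.0741, MYCTH_92876, which matches a cytoplasmic mRNA exonuclease, at 0.0760, and MYCTH_2300427, which matches an activating enzyme of autophagy, at 0.0783. Over the libraries, the SD of log2 CPM was 0.387 for clr-4 and 0.880 for clr-1. For xyr-1 they were MYCTH_2294448, which matches an ATP-binding cassette transporter, at 0.179, MYCTH_98107, which matches a RING ubiquitin ligase, at 0.182, and MYCTH_2308922 at 0.188. For clr-2 they were MYCTH_2306375 at 0.178, MYCTH_2303529 at 0.181 and MYCTH_2307033, which matches a putative transcription factor, at 0.187. No gene was near 2 of the 4 regulator genes by this rule.

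Gene order was read from the RefSeq assembly ASM22609v1, which holds 9087 of the 9110 locus tags. It was used only for which genes are neighbours, since its build was not shown to be that of the counts. None of the 16 neighbours, 2 on each side of a regulator gene, overlapped it, and none of the 4 genes neighbours another. Of 15 neighbours tested in DF1102 against JG207, 3 were called higher and 1 lower, beside 10.2% and 11.1% of all tested genes, and no difference from that background is read from so few. These 4 were singled out after their values were seen. MYCTH_2298860 beside clr-1 was at a log2 fold change of 1.93, and MYCTH_97762, which matches a vacuolar amino acid permease, and MYCTH_2050486, both near clr-2, were at 2.08 and 2.78, the last at no more than 1.103 RPKM in any library. MYCTH_2310138 near xyr-1 was at -1.77. No neighbour of clr-4 was called.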

How the data were processed

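RNA from 8 libraries (4 strains, 2 each) was sequenced on DNBSEQ. The authors filtered reads with SOAPnuke, mapped them to the JGI genome v2.0 of M. thermophila with TopHat2 2.0.12 and made each count from reads unique to 1 gene with HTSeq 0.13.5. Deposited RPKM values are the authors' counts per length and library total. The strand setting is not given in the sources used here. In the counts of JG207 replicate 1, 3 rows without a gene ID (column of other values) were left out, and 0 sample columns were unused. Tests used edgeR 4.0.16 and R 4.3.3 on the counts (TMM factors 0.954 to 1.05, filterByExpr with a minimum count of 10, 1 mean per strain). Standard errors are the absolute log2 fold change over the square root of F. Residual degrees of freedom were 4 and prior ones 5.16. Alternatives were DESeq2 1.42.0, limma 3.58.1 on log2(RPKM + 1), filtered at a mean of 1 RPKM or not, and on log2(RPKM + 0.1), other scalings and filters, a replicate block, only the 4 libraries compared, no fold minimum and each library left out. The script was tested on simulated data.

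The regulator genes, lists and rules were chosen with earlier results of these data known. Genes named are the 4 regulators, the 3 of most similar pattern to each, the 4 highest and lowest called zinc cluster genes with a mean of at least 1 RPKM, the largest change of each list, Mtxyl1, Mtxyd1 and actin. Outside this rule, 4 neighbours were named after their values were seen. Zinc cluster genes were taken by description, since no protein table was used here. No sequence is shown.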

Additional observations from a re-analysis of the deposited data

How the results depend on the processing

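Against JG207, all 12 changes of the regulator genes kept their direction and passed the test in every alternative. The number called higher in DF1102, 3 in the main fit, was 2 to 4 in the alternatives. It was 2 only with limma on log2(RPKM + 1), where clr-2 had a log2 fold change of 0.77, against 1.04 on log2(RPKM + 0.1). It was 4 where clr-4, which lay near the fold minimum, reached it. The fall of clr-1 in DF1501 against DF1102 also passed in each, at -0.77 to -0.69 on leaving out 1 library. Other calls between these strains were less stable. For clr-4 in DF1501 against DF1102, -0.37 no longer passed with library size alone (adjusted p = 0.0619), with only the 4 libraries compared (0.0664) and with limma on log2(RPKM + 1) (0.0554), the same without a filter (0.06) and on log2(RPKM + 0.1) (0.0565). For clr-1 in DF1406 against DF1102, limma without a filter gave -0.56 (0.0514), and clr-4 there passed with only the 4 libraries compared, at -0.31 (0.0495). For clr-4 in DF1501 against DF1406 the sign turned, to 0.01, with library size alone and in the 3 limma fits. The causes were not tested, and 2 libraries a strain limit all of these.

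Leaving out 1 library gave, for DF1406 against DF1102, -0.68 to -0.33 for clr-1 and -0.09 to 0.34 for clr-2 (reversed without DF1406 replicate 1), with 0 to 1 gene called lower. It gave -0.43 to -0.32 for clr-4 in DF1501 against DF1102. In DF1501 against DF1406 it gave -0.01 to 0.42 for clr-2 (reversed without DF1406 replicate 2), -0.15 to 0.03 for clr-4 (reversed without DF1406 replicate 1) and -0.02 to 0.12 for xyr-1 (reversed without DF1501 replicate 1). For lists against JG207 it gave 1 to 2 zinc cluster genes lower in DF1102, and, in DF1501, 8 to 14 xylan and 4 to 10 cellulose genes higher. A lone library was assumed to vary like the rest.

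Over all genes, leaving out 1 library gave, higher and lower, 816 to 877 and 860 to 935 genes in DF1102 against JG207, 513 to 618 and 246 to 348 in DF1406, and 258 to 502 and 63 to 212 in DF1501. It gave 98 to 738 and 68 to 413 in DF1406 against DF1102, 697 to 1191 and 486 to 935 in DF1501 against DF1102, and 4 to 362 and 8 to 430 in DF1501 against DF1406. With no fold minimum, 2316 and 2458, 1430 and 1645, and 976 and 797 genes were called against JG207 in that order of strains. Without that minimum there were 990 and 825 in DF1406 and 1358 lower in DF1501 against DF1102, with 1 and 2 regulator genes lower. In DF1406 against DF1102, limma without a filter called 418 genes higher (651 in edgeR). In DF1501 against DF1406, 163 higher and 153 lower became 2 and 1 with only the 4 libraries compared and 263 and 246 in DESeq2, with 286 higher under library size alone and 253 under limma with either pseudocount. The share of calls that were higher was 64.4% in DF1406 against DF1102, but 50.6% with library size alone and 52.7% with limma. In DF1501 against DF1406 it was 51.6%, but 64.0% and 62.0%.

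Replicate differences of strains correlated at -0.223 to 0.169 over genes. Such weak values of mixed sign cannot settle whether replicate numbers paired the libraries, and the main fit used no pairing. The replicate block gave 840 genes higher and 918 lower in DF1102 against JG207, and changed no call of the 4 regulator genes.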
